A study of Oryza sativa with 24 samples.

Results

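The step between 2 successive seed generations of a rice line that clones itself through seed was examined: flag leaves of Fix T3 plants were set against flag leaves of Fix T2 plants. The comparison rests on 4 RNA-seq libraries, 2 of Fix T3 and 2 of Fix T2, out of 12 RNA-seq libraries in the series, and they were chosen by their labels. The series also holds 12 bisulfite samples, which were not analysed here.

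Both generations descend from the same founder. The Fix line was made by genome editing in Chunyou84 (CY84), an elite hybrid of a japonica male-sterile mother, Chunjiang 16 A, and the indica-japonica intermediate father C84. Its edits in REC8, PAIR1 and OSD1 turn meiosis into a mitosis-like division, and an edit in MTL allows seed to form without a paternal genome, so every group called Fix, T2 as well as T3, carries the same edits. Fix T3 and Fix T2 plants were raised from seed in nutrient solution, screened for diploids and moved to a paddy field in Hangzhou, and flag leaves, the uppermost leaves, were taken at heading. The other 8 libraries are 2 each of CY84, Fix T0, Fix T1 and Fix T4. CY84 and Fix T0 were kept through their roots. The labels do not say that the libraries of a generation come from separate plants, and a p therefore covers the spread between libraries, which may be technical. They also do not say whether the generations grew side by side.

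Most of the passing genes with a name used here belong to the phenylpropanoid pathway or its precursors. Many of these names were added after their values were known, and 60 of the 73 passing genes have no name used here. That share therefore depends on the naming. The phenylpropanoid pathway starts from phenylalanine, a product of the shikimate pathway. Phenylalanine ammonia-lyase (PAL) removes its amino group, 4-coumarate CoA ligases (4CL) activate the resulting acids, hydroxycinnamoyltransferases (HCT) and O-methyltransferases that use S-adenosylmethionine modify the ring, and cinnamyl alcohol dehydrogenase (CAD) makes the alcohols that are linked into lignin. In leaves the same intermediates also feed soluble phenolics and, through chalcone synthase, flavonoids.

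Levels are in FPKM, a read measure corrected for gene length and library size, so different genes can be set side by side. Differences are Fix T3 minus Fix T2 in log2(FPKM + 1), a scale on which the change of a low gene is understated. A gene was tested if it had at least 1 FPKM in at least 2 of the 12 libraries. It passed if the limma test, fitted on all 12 libraries, gave a Benjamini-Hochberg adjusted p under 0.05 over all 18871 genes tested. In bulk leaf RNA, a change in the share of a cell type and a change in RNA per cell cannot be told apart.

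Among genes with a name used here, several of phenylpropanoid synthesis and of its precursors were higher in Fix T3, as were 2 phosphate transporters. Few of all tested genes were lower. Of the 18871 genes tested, 71 were higher in Fix T3 (0.376%) and 2 were lower (0.0106%), 73 in all (0.387%). Of these 73, 60 have no name used here, so what most of them encode was not examined. Among the higher genes, 5 had a usable name in the first lists and 8 were named after their values were known. The 71 higher genes differed by 1.18 to 4.03 on the log2 scale, with a median of 2.07. Their median group mean was 50.5 FPKM in Fix T3 and 9.27 FPKM in Fix T2, and 21 of them averaged at least 100 FPKM in Fix T3. Before adjustment, a p under 0.05 was reached by 1722 genes (9.13%), of which 1286 were higher (6.81%) and 436 lower (2.31%). The 2 Fix T3 values lay above both Fix T2 values in 4113 genes (21.8%) and below both in 1999 genes (10.6%).

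**Figure D1:**
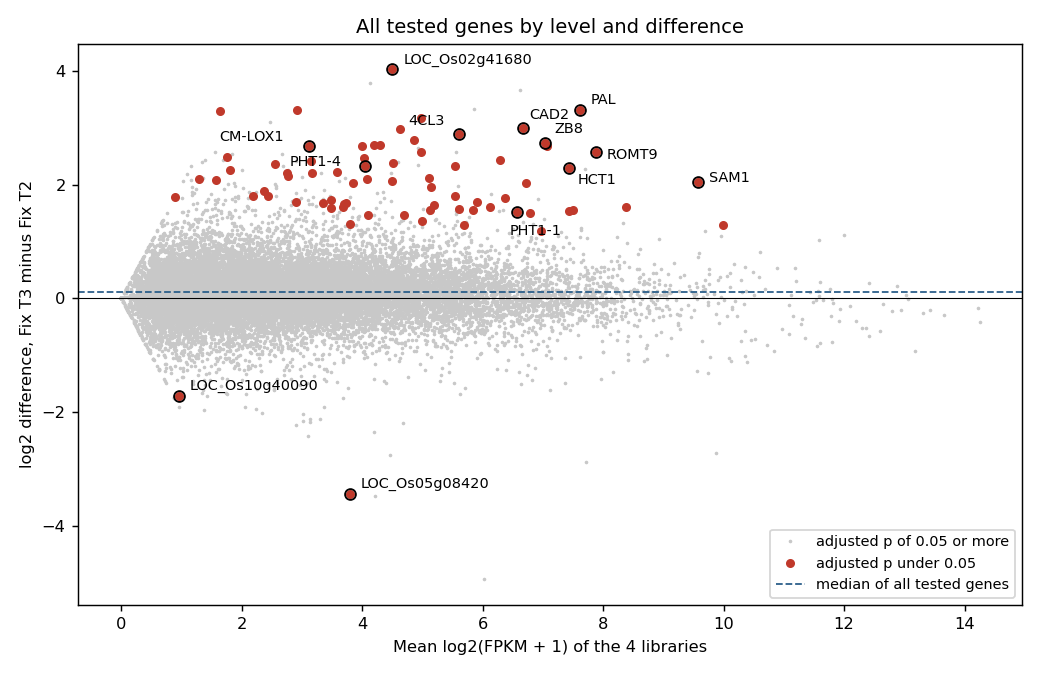
Each point is a tested gene, placed by the mean log2(FPKM + 1) of the 4 libraries (x axis) and its log2 difference, Fix T3 minus Fix T2 (y axis). Red points passed and black rings mark genes named in the text. The passing genes sit almost wholly above 0, with 71 higher and 2 lower, and the dashed line shows the median of all tested genes, 0.11.

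The libraries themselves set limits to these counts. The median difference over all tested genes was 0.11, with an interquartile range of -0.142 to 0.367, and it came with Fix T2 replicate 2: against that library the medians were 0.194 for Fix T3 replicate 1 and 0.23 for Fix T3 replicate 2, while against Fix T2 replicate 1 they were -0.00535 and 0.0153. In Fix T2 replicate 2 the 10 most abundant genes held 19.3% of all FPKM, while their share in the other 3 libraries was 15.9 to 16.5%. After median-of-ratios rescaling the median was -0.00324, and 64 genes were higher and 7 lower. Across genes, Pearson's r of log2(FPKM + 1) was 0.958 within Fix T3, 0.936 within Fix T2 and 0.938 to 0.950 between the generations, so the Fix T2 libraries were no more alike than a Fix T3 and a Fix T2 library. Relative depth, with CY84 replicate 1 at 1, was 0.763 and 0.674 in Fix T3 and 0.85 and 0.994 in Fix T2, and absolute depth is unknown.

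Both genes of the first step with a usable name were higher, and both were named after their values were known. PAL6 of the first list, also a phenylalanine ammonia-lyase, had no usable name, nor had C4H, a cinnamate 4-hydroxylase. Their values are not given here. PAL (LOC_Os02g41630), a phenylalanine ammonia-lyase, had 774 and 495 FPKM in Fix T3, against 64.6 and 58.1 FPKM in Fix T2. Both Fix T3 libraries stood far above both Fix T2 libraries, and the means were 635 ± 197 FPKM for Fix T3 and 61.4 ± 4.64 FPKM for Fix T2 (± SD of 2 libraries), a ratio of 10.3. The log2 difference was 3.32 ± 0.323 (SE), with a limma adjusted p of 0.00236. ZB8 (LOC_Os02g41650), a second phenylalanine ammonia-lyase, had 445 and 257 FPKM in Fix T3, against 47.4 and 53.2 FPKM in Fix T2, a log2 difference of 2.73 (limma adjusted p 0.0361). The gene that differed most of all those that passed, LOC_Os02g41680, was not paired with a name and has an identifier close to these on chromosome 2. It had 131 and 62.2 FPKM in Fix T3, against 4.09 and 5.17 FPKM in Fix T2, a log2 difference of 4.03 (limma adjusted p 0.00236). Phenylalanine ammonia-lyase genes are a family of like sequence, although no sequences were compared here. Reads could therefore be split between neighbours, and the share of each gene is uncertain.

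The ligases were divided. 4CL3 (LOC_Os02g08100), a 4-coumarate CoA ligase, had 131 FPKM in each Fix T3 library, against 20.6 and 13.7 FPKM in Fix T2, which differ by 2.89 ± 0.342 in log2 (± SE, limma adjusted p 0.0053). 4CL5 had 7.07 and 5.21 FPKM in Fix T3, against 0.653 and 1.62 FPKM in Fix T2. Its groups did not overlap either, but its difference of 1.77 did not pass (limma adjusted p 0.0969). 4CL4, with 10.6 and 15.3 FPKM in Fix T3 and 14.7 and 6.41 FPKM in Fix T2, overlapped, as did 4CL1, which lay between 0.416 and 1.42 FPKM in the 4 libraries and differed by -0.06. 4CL2 stayed under 1 FPKM and was not tested.

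Genes of the later steps also differed. HCT1 (LOC_Os04g42250), a hydroxycinnamoyltransferase, had 493 and 297 FPKM in Fix T3, against 78.8 and 74.9 FPKM in Fix T2, a log2 difference of 2.30 (limma adjusted p 0.00991). HCT2 (LOC_Os02g39850) had 108 and 105 FPKM in Fix T3, against 34.7 and 29.6 FPKM in Fix T2, a log2 difference of 1.70 (limma adjusted p 0.0384). Their relative HCT3 showed no such gap: it had 25.9 and 16.7 FPKM in Fix T3 and 18.2 and 26.8 FPKM in Fix T2. ROMT9 (LOC_Os08g06100), the O-methyltransferase of lignin and melatonin synthesis, had 588 and 560 FPKM in Fix T3, against 88.7 and 103 FPKM in Fix T2. Its means were 574 ± 19.8 FPKM for Fix T3 and 96.0 ± 10.3 FPKM for Fix T2 (± SD of 2 libraries), with a log2 difference of 2.57 (limma adjusted p 0.00526), and its 2 Fix T3 values were close together and above every other library of the series.

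Among the caffeoyl-CoA O-methyltransferase genes, which lie side by side on chromosome 8, ROMT-15 (LOC_Os08g38900) had 193 and 233 FPKM in Fix T3, against 39.4 and 67.0 FPKM in Fix T2, a log2 difference of 2.02 (limma adjusted p 0.0176). Its neighbour ROMT-17 (LOC_Os08g38910) had 28.4 and 8.97 FPKM in Fix T3, against 42.6 and 27.7 FPKM in Fix T2. The groups overlapped there and the difference of -1.05 did not pass (limma adjusted p 0.491). CAD2 (LOC_Os02g09490), the cinnamyl alcohol dehydrogenase whose loss gives the gold hull and internode rice mutant, had 368 and 221 FPKM in Fix T3, against 22.5 and 53.4 FPKM in Fix T2. The groups were well apart although each pair was wide, and the log2 difference was 3.00 with an SE of 0.442 (limma adjusted p 0.0194). CHS1, a chalcone synthase of the flavonoid branch, was near the filter's floor: it had 0.912 and 0.988 FPKM in Fix T3 and 1.31 and 0.636 FPKM in Fix T2.

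Of 4 enzymes that supply the pathway, all named after their values were known, 2 were higher and 2 did not pass. DAHPS2 (LOC_Os07g42960), an entry enzyme of the shikimate pathway, had 66.1 and 30.5 FPKM in Fix T3, against 9.29 and 10.7 FPKM in Fix T2, a log2 difference of 2.07 (limma adjusted p 0.0296). Its relative DAHPS1 had 28.4 and 12.5 FPKM in Fix T3 and 16.3 and 8.51 FPKM in Fix T2, which overlap (limma adjusted p 0.681). SAM1 (LOC_Os05g04510), an S-adenosylmethionine synthetase, was the most abundant gene of the group, with 1490 and 1610 FPKM in Fix T3, against 348 and 405 FPKM in Fix T2. Its log2 difference was 2.04 with an SE of 0.261 (limma adjusted p 0.00991). SAM2 had 267 and 222 FPKM in Fix T3, against 95.3 and 137 FPKM in Fix T2, without overlap, and its difference of 1.09 did not pass (limma adjusted p 0.147).

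**Figure D2:**
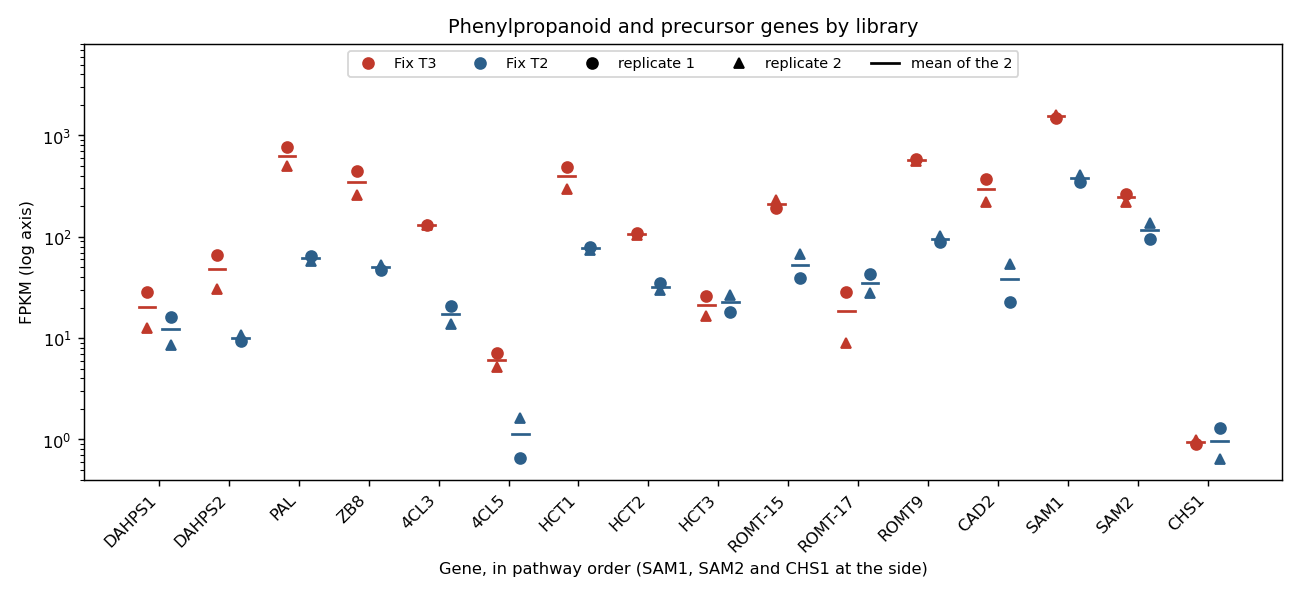
FPKM (log axis) of phenylpropanoid and precursor genes in each Fix T3 library (red, left) and Fix T2 library (blue, right); circles are replicate 1, triangles replicate 2 and lines the mean of the 2. PAL, ZB8, 4CL3, HCT1, HCT2, ROMT-15, ROMT9, CAD2, DAHPS2 and SAM1 are far apart, while HCT3 and CHS1 overlap.

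Counted as lists, 3 of 7 tested genes of the phenylpropanoid and lignin list passed, all higher, beside 0.387% of all tested genes. The list's median difference was 1.77, against 0.11 over all tested genes. Its members were chosen with earlier results of these data known. That list has 11 members, of which 8 had a usable name. Of 10 phenylpropanoid names added only after values were known, 7 were tested and 5 passed, all higher. PAL among them has the identifier that the first list held as PAL1, a name that was not usable. Of 4 precursor genes named after their values were known 2 passed, both higher. The counts of these added names are no independent evidence. Leaving out Fix T3 replicate 1 ended the call of all 10 of these named genes except PAL. Adjusted p without that library was 0.0219 for PAL, 0.0544 for ROMT9, 0.0582 for 4CL3, 0.0583 for SAM1, 0.0945 for HCT1 and ROMT-15, and 0.148 to 0.212 for CAD2, DAHPS2, HCT2 and ZB8. Leaving out Fix T3 replicate 2 ended the call of SAM1 (0.0514), ZB8 (0.0789), ROMT-15 (0.0862) and HCT2 (0.172). Leaving out Fix T2 replicate 1 ended that of ROMT-15 (0.0705), CAD2 (0.0808), HCT2 (0.0889), DAHPS2 (0.0967) and ZB8 (0.108), and leaving out Fix T2 replicate 2 that of DAHPS2 (0.0777), ZB8 (0.110) and HCT2 (0.128). HCT2 also lost its call without either library of CY84, Fix T0 or Fix T4, and ZB8 and DAHPS2 without either library of CY84 or Fix T0. ZB8 did not pass after rescaling (0.0519). The log2 differences of these 10 genes kept their sign in every alternative tried.

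Markers of cells rich in secondary walls were near the floor. The cellulose synthases CESA4, CESA7 and CESA9, which build secondary walls, had at most 0.195 FPKM in the Fix T3 libraries and at most 0.407 FPKM in the Fix T2 libraries.

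In the phosphate list 2 transporters passed. PHT1-1 (LOC_Os03g05620), a transporter of the PHT1 family that takes up phosphate, had 148 and 174 FPKM in Fix T3, against 48.2 and 62.6 FPKM in Fix T2, which differ by 1.53 ± 0.228 in log2 (± SE, limma adjusted p 0.0200). A second member of the family, PHT1-4 (LOC_Os04g10750), had 33.5 and 39.0 FPKM in Fix T3, against 10.8 and 3.62 FPKM in Fix T2, which differ by 2.33 ± 0.405 in log2 (± SE, limma adjusted p 0.0349). Their relative PHT1-8 reached 63.8 and 65.7 FPKM in Fix T3, against 37.3 and 35 FPKM in Fix T2. Its groups were apart, but its difference of 0.82 did not pass (limma adjusted p 0.725). The Fix T1 libraries, which enter the same estimate of the spread, had 9.59 and 60.4 FPKM.

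The signalling genes of phosphate starvation differed little. SPX1, a sensor protein, had 9.5 and 23 FPKM in Fix T3 and 15.3 and 14.1 FPKM in Fix T2, and the lowest difference of the list, 0.02, which turned to -0.133 after rescaling. SPX2, SPX4 and PHR2, the starvation transcription factor, overlapped as well. Of 7 tested genes of the phosphate list 2 passed, both higher, beside 0.387% of all tested genes. The list median was 0.161, against 0.11 over all tested genes, and 11 members and 10 usable names stand behind it. With library quality weights neither transporter passed (limma adjusted p 0.0679 for PHT1-1 and 0.103 for PHT1-4). PHT1-4 also did not pass without the filter (0.122) or with the replicate block (0.0609). PHT1-1 lost its call without Fix T3 replicate 1 (adjusted p 0.0945), Fix T3 replicate 2 (0.107), Fix T2 replicate 1 (0.0762) or Fix T0 replicate 2 (0.0506). PHT1-4 lost its call without Fix T3 replicate 1 (0.162), Fix T3 replicate 2 (0.175) or Fix T2 replicate 2 (0.108), and without either library of CY84 or Fix T0.

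Lipoxygenases of the chloroplast, which start jasmonate synthesis, were named after their values were known. CM-LOX1 (LOC_Os08g39840) had 19.6 and 22.6 FPKM in Fix T3, against 2.55 and 2.35 FPKM in Fix T2, which differ by 2.68 ± 0.374 in log2 (± SE, limma adjusted p 0.0164), and both Fix T2 values lay below all other libraries of the series. Its neighbour CM-LOX2 had 44.3 and 37.4 FPKM in Fix T3, against 20.6 and 13.6 FPKM in Fix T2. There too both Fix T2 values were below all others, but the difference of 1.23 did not pass (limma adjusted p 0.0945). As neighbours of like sequence, both may share reads. CM-LOX1 did not pass without Fix T3 replicate 1 (0.0945), Fix T3 replicate 2 (0.0788), Fix T2 replicate 1 (0.0642) or Fix T2 replicate 2 (0.0548).

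Further along the jasmonate pathway 0 of 7 tested genes passed, and the median difference was 0.325. AOS2, an allene oxide synthase, had 1.86 and 1.3 FPKM in Fix T3, against 0.399 and 0.171 FPKM in Fix T2, a difference of 1.00 that did not pass, and AOS1 was the lowest at -0.20. Among the JAZ repressors of the pathway 0 of 9 tested passed, and the highest was JAZ6 at 0.84 and the lowest JAZ8 at -0.03.

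The 2 genes that fell were not paired with a name. LOC_Os05g08420 had 2.08 and 4.75 FPKM in Fix T3, against 29.1 and 68.0 FPKM in Fix T2, which differ by -3.43 ± 0.380 in log2 (± SE, limma adjusted p 0.00488). Low values recurred in Fix T1, with 2.27 and 2.34 FPKM, while CY84, Fix T0 and Fix T4 lay between 31.5 and 40.4 FPKM, so that 2 generations stood about as low as each other and the other 4 groups far above them. It passed without each of the 4 compared libraries, with adjusted p between 0.00463 and 0.0476. LOC_Os10g40090, named because so few genes fell, was listed at 0 and at 0.144 FPKM in Fix T3, against 2.26 and 2.77 FPKM in Fix T2, a log2 difference of -1.71 (limma adjusted p 0.0401). Its Fix T2 values were the highest of the series. It did not pass without any of the 4 compared libraries, with adjusted p between 0.0967 and 0.203, nor without either library of CY84 or Fix T0.

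**Figure D3:**
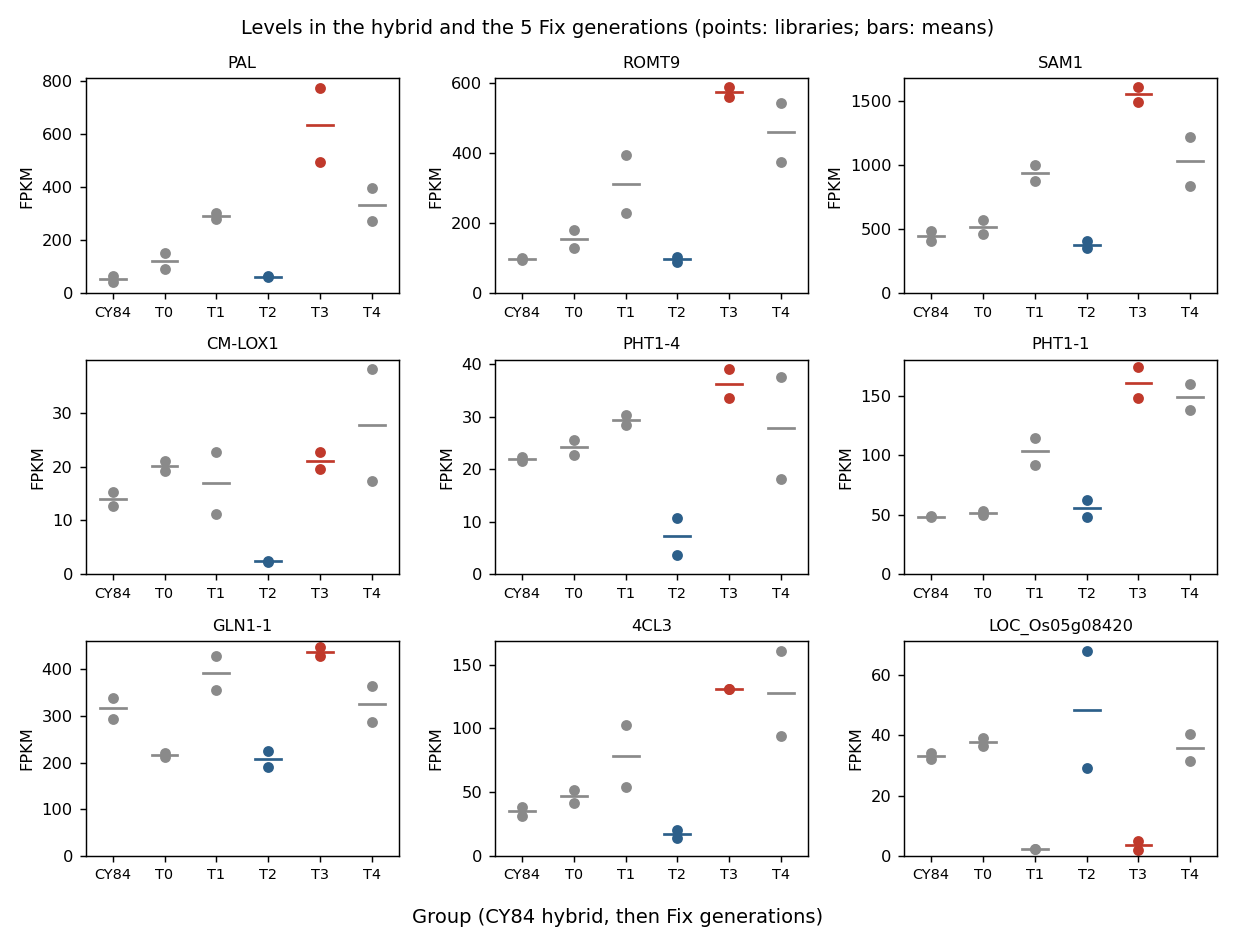
FPKM by group for 9 genes, from the hybrid CY84 through Fix T0 to Fix T4; points are libraries, bars are means of 2, with Fix T3 in red and Fix T2 in blue. PAL, ROMT9 and SAM1 peak in Fix T3, CM-LOX1, PHT1-4 and 4CL3 have their lowest values in Fix T2, and LOC_Os05g08420 is low in Fix T3 and Fix T1.

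The other generations show on which side of the step the 71 higher genes stood apart. Both Fix T3 libraries lay above the other 8 libraries in 17 of the 71, both Fix T2 libraries lay below the other 8 in 26, both held in 3 and neither in 31. PAL, ROMT9 and SAM1 were in the first set and 4CL3, DAHPS2, PHT1-4 and CM-LOX1 in the second. The median of the group means was 13.9 FPKM in CY84, 18.9 in Fix T0, 36.6 in Fix T1, 9.27 in Fix T2, 50.5 in Fix T3 and 44.7 in Fix T4. The Fix T4 mean was above the Fix T2 mean in all 71, the Fix T1 mean in 70, the Fix T0 mean in 58 and the CY84 mean in 40. The genes were chosen on the Fix T2 values, so this is a description. PAL followed the same course, with 63.6 and 42.7 FPKM in CY84, 150 and 89.5 in Fix T0, 280 and 303 in Fix T1, 64.6 and 58.1 in Fix T2, 774 and 495 in Fix T3, and 272 and 396 in Fix T4. PAL in Fix T2 was near its level in the hybrid, and PAL in Fix T3 was above every library of the series.

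A gene of nitrogen assimilation came close to passing in the fit reported, but not after rescaling. GLN1-1, the main cytosolic glutamine synthetase of leaves, had 429 and 447 FPKM in Fix T3, against 190 and 224 FPKM in Fix T2. The pairs were narrow and apart, and the log2 difference of 1.08 had a limma adjusted p of 0.0797. After median-of-ratios rescaling the difference was 0.927 (limma adjusted p 0.286), and with quality weights the adjusted p was 0.296. It passed in 0 of 21 alternatives.

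Momilactones are diterpene phytoalexins of rice, made by enzymes encoded in a cluster on chromosome 4. CYP99A2, a cytochrome P450 of the cluster, had 8.79 and 1.79 FPKM in Fix T3, against 0.493 and 0 FPKM in Fix T2. CPS4, its diterpene cyclase, had 4.65 and 1.05 FPKM in Fix T3, against 0.247 and 0.124 FPKM in Fix T2. All 4 tested genes were above 0, as were 61.5% of all tested genes. Their median difference was 1.26 and 0 passed: CYP99A2 was the highest at 2.1 (limma adjusted p 0.133) and CYP99A3 the lowest at 0.87. Fix T3 replicate 1 was above Fix T3 replicate 2 in all 4, beside 48.3% of all tested genes. Without Fix T3 replicate 2 CYP99A2 (3.00, adjusted p 0.0317) and CPS4 (2.26, adjusted p 0.0350) passed.

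Of the tested genes 5 of 7 aquaporins and 4 of 4 antioxidant enzymes were above 0, beside 61.5% of all tested genes, and 0 passed. PIP1-2, a plasma membrane aquaporin, had 1720 and 1220 FPKM in Fix T3, against 748 and 606 FPKM in Fix T2, a difference of 1.10 (limma adjusted p 0.183). PIP1-3 differed by 0.61 and PIP1-1 was the lowest aquaporin at -0.30. CATA, a catalase, had 1370 and 1130 FPKM in Fix T3, against 954 and 314 FPKM in Fix T2, a difference of 1.18 (limma adjusted p 0.340) that passed without Fix T2 replicate 1, at 1.98 (adjusted p 0.0249). CATB differed by 0.53 and APX1, an ascorbate peroxidase, by 0.28.

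Chlorophyll synthesis and light reaction genes stood mostly below 0, while 61.5% of all tested genes stood above 0. Of 11 tested chlorophyll synthesis genes 10 were below 0, as were 3 of 3 tested light reaction genes, while 3 of 4 tested Calvin cycle and photorespiration genes were above 0, with a median of 0.0811 that turned to -0.0744 after rescaling, beside 0.11 over all tested genes. In these 3 lists 0 genes passed. The Calvin cycle gene below 0 was RBCS, a small subunit of Rubisco, which had 945 and 604 FPKM in Fix T3, against 1890 and 1410 FPKM in Fix T2, a difference of -1.11 (limma adjusted p 0.294), and other copies of the subunit are near-identical, so its own level is uncertain. HEMA1, glutamyl-tRNA reductase at the start of chlorophyll synthesis, had 115 and 80.4 FPKM in Fix T3, against 254 and 159 FPKM in Fix T2, a difference of -1.05 (limma adjusted p 0.293). The median of the chlorophyll synthesis genes was -0.204, with PORB, a protochlorophyllide oxidoreductase, at -0.58 and the chloroplast regulator GLK2 the highest at 0.13. Fix T2 replicate 2 was below Fix T2 replicate 1 in 10 of the 11, beside 63.4% of all tested genes. The list median without Fix T2 replicate 1 was 0.0123.

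Plastocyanin, PETE, had 1570 and 1120 FPKM in Fix T3, against 1740 and 3660 FPKM in Fix T2, a difference of -0.93 (limma adjusted p 0.507), and the antenna gene CAB1R differed by -0.29. Light-harvesting genes were the most abundant named genes in both generations, which fits the green leaf tissue on the label: CAB2R had 24900 and 11400 FPKM in Fix T3 and 18400 and 27500 FPKM in Fix T2. RCA, Rubisco activase, was the highest of the Calvin cycle list at 0.21. Of 10 tested cytokinin genes 8 were below 0, with a median of -0.378, while 61.5% of all tested genes were above 0. RR4, a response regulator induced by cytokinin, was the lowest at -0.59, with 55.2 and 46.6 FPKM in Fix T3, against 76.4 and 77.2 FPKM in Fix T2, and CKX11, a cytokinin oxidase, the highest at 0.59. Of the 10, 0 passed, and Fix T3 replicate 2 was below Fix T3 replicate 1 in 9 of them, beside 48.3% of all tested genes.

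**Figure D4:**
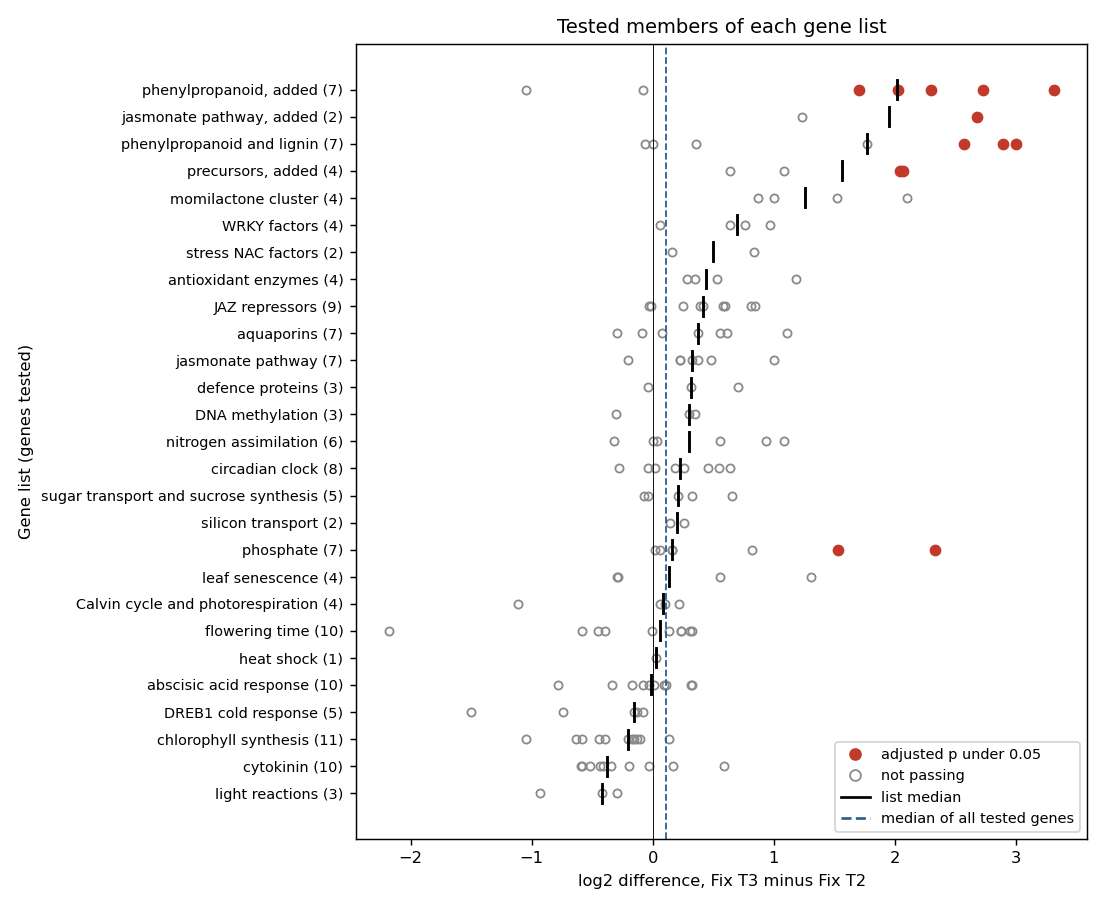
Log2 difference, Fix T3 minus Fix T2 (x axis), of every tested member of each gene list (y axis, number tested in brackets). Filled red points passed, open points did not, black bars are list medians and the dashed line is the median of all tested genes, 0.11. Passing members are found in the phenylpropanoid, precursor, lipoxygenase and phosphate lists only.

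In the remaining lists 0 genes passed, as limma counts at an adjusted p under 0.05. At an unadjusted p under 0.05, NPR1, the salicylic acid co-receptor, stood at 0.70 and the ammonium transporter AMT1-1 at 0.94. PP2C49, a phosphatase of abscisic acid signalling, stood at -0.78 and the cold factor DREB1B at -1.5. DREB1B was low in all 4 libraries, with 0 and 0.836 FPKM in Fix T3 and 2.03 and 3.83 FPKM in Fix T2 (limma adjusted p 0.416). The plastid glutamine synthetase GLN2 was the lowest of nitrogen assimilation at -0.32. WRKY24 was the highest WRKY factor at 0.97 and WRKY71 the lowest at 0.06. SGR, which starts chlorophyll breakdown, had 5.19 and 40.2 FPKM in Fix T3 and 5.94 and 5.04 FPKM in Fix T2, so that its difference of 1.3 rested on Fix T3 replicate 2 and was -0.065 without it, and NOL was the lowest senescence gene at -0.30.

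Some of the remaining lists had members on both sides of 0, others on a single side. All 5 tested DREB1 genes were below 0, while 61.5% of all tested genes were above 0. NAC6 differed by 0.84 and NAC5 by 0.16, SPS8, a sucrose-phosphate synthase, by 0.66 and the sucrose transporter SUT2 by -0.07. The silicon transporters LSI1 and LSI6 differed by 0.26 and 0.14, RAB16A of the abscisic acid response by 0.33, DREB1H by -0.08, the chitinase Cht1 by -0.04 and the small heat shock protein HSP17.4 by 0.02. AGO4a and DRM2, both of RNA-directed DNA methylation, differed by 0.35 and -0.30.

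The clock and flowering genes varied within Fix T2 rather than between the generations. All 8 tested clock genes were lower in Fix T2 replicate 2 than in Fix T2 replicate 1, with a median log2 difference, replicate 2 minus replicate 1, of -1.26, as were 9 of 10 flowering genes. Over all tested genes 63.4% were lower in that library than in its partner, and this median was -0.217. PRR73, a pseudo-response regulator, had 33.5 and 25.4 FPKM in Fix T3 and 41.0 and 9.16 FPKM in Fix T2, while ELF3-1 was the highest clock gene at 0.64, GI the lowest at -0.28 and PHYB the highest flowering gene at 0.33. In Fix T3 replicate 2, 3 of the 8 clock genes were lower than in Fix T3 replicate 1, beside 48.3% of all tested genes. Whether sampling time differed between libraries was not tested.

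No tested gene used as a check passed. PAIR1, the edited gene with a usable name, was listed at 0 in all 4 libraries, so it checks neither the edits nor the labels, and actin ACT1 had 40.8 and 53.9 FPKM in Fix T3 and 45.6 and 41.5 FPKM in Fix T2. The anther genes C6 and UDT1 were listed at 0 in all 4 libraries, and TDR and CYP703A3 had at most 0.474 FPKM in Fix T3 and 0.463 FPKM in Fix T2. The dividing-cell markers OSH1 and CDKB2-1 had at most 0.414 FPKM in Fix T3 and 0.418 FPKM in Fix T2. PCNA differed by -0.06 and the spikelet gene MADS1 by -0.19. The starch gene WX and the glutelin GLUA2 of seeds differed by 0.59 and 0.49, above the upper quartile of all tested genes, 0.367.

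**Figure D5:**
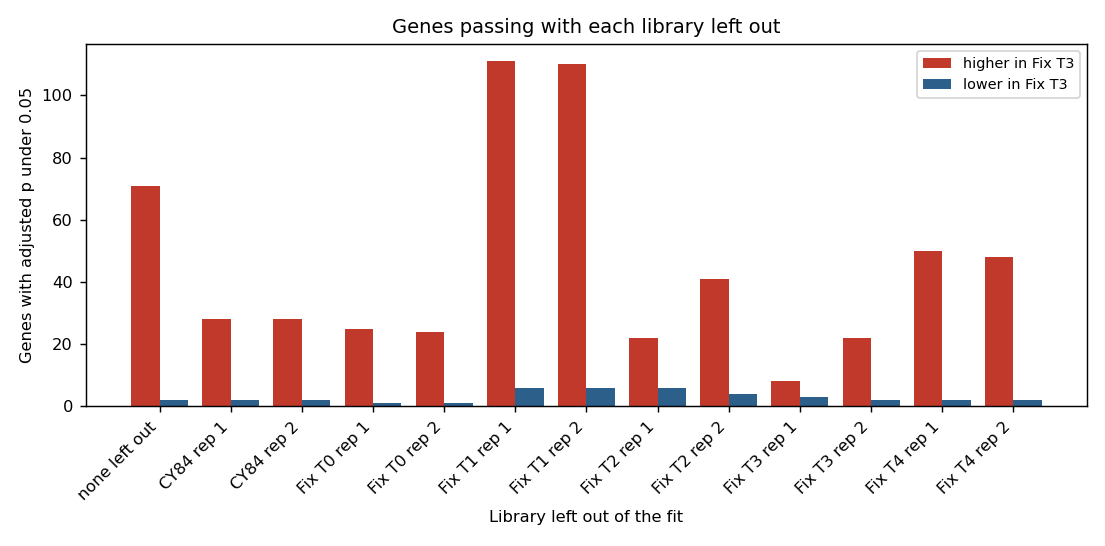
Number of genes with an adjusted p under 0.05 (y axis), higher in Fix T3 (red) and lower in Fix T3 (blue), with no library left out and with each of the 12 libraries left out in turn (x axis). The count of higher genes runs from 8 without Fix T3 replicate 1 to 111 without Fix T1 replicate 1, against 71 with all 12.

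The number of calls depended on single libraries, including those of other groups, because all groups share 1 estimate of the spread. Without Fix T3 replicate 1 there were 8 higher and 3 lower genes, without Fix T3 replicate 2 there were 22 and 2, without Fix T2 replicate 1 there were 22 and 6 and without Fix T2 replicate 2 there were 41 and 4. Without either CY84 or either Fix T0 library 24 to 28 were higher, and without either Fix T1 library 110 to 111. Fitted on the 4 compared libraries alone, limma passed 0 genes, and before adjustment 811 stood higher and 257 lower with p under 0.05. PAL, LOC_Os02g41680 and LOC_Os05g08420 passed in all 12 fits with 1 library left out.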

How the data were processed

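Flag leaf RNA-seq libraries of Fix T3 and Fix T2 were compared, with the other 8 libraries in the fit. The authors deposited 1 table of FPKM values per gene and library. Per the submitters' processing notes, HISAT2 2.1.0, StringTie 1.3.4d and featureCounts 1.6.4 were among the tools; their roles and the genome build are not given in the sources used here. FPKM are not counts, so count tests were not used. The 20 unnamed columns were left out.

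Of 55801 listed genes, 18871 had at least 1 FPKM in at least 2 libraries. Values were fitted as log2(FPKM + 1) with limma 3.58.1 in R 4.3.3: 6 group means, a trended prior, 6 residual degrees of freedom, Benjamini-Hochberg adjustment. An exact permutation test of 2 against 2 libraries cannot go below 0.333. The fit was tested on simulated data that had the fitted spread and 200 changed genes. It recovered 1% of 2-fold, 91% of 4-fold and 99.5% of 8-fold changes, so a 2-fold difference could rarely pass.

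Comparison members and gene lists were chosen with earlier results of these data known. Names were paired by hand with the MSU identifiers and used only if RefSeq's annotation holds them on the same chromosome in order: 194 of 257. Named were genes passing with a usable name, then genes with the smallest p up to 24, the first 2 each way without a name, and the highest and lowest of each list; 1 of these is not reported here. Of the 194 names, 16 were added after values were seen, as were other list members given beside them. Alternatives were another pseudocount, filters, rescaling, a replicate block, quality weights, other sets of libraries and, chosen later, an untrended prior and fits without Fix T1.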

Additional observations from a re-analysis of the deposited data

How the results depend on the processing

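All counts follow the order higher, then lower, in Fix T3, and were 71 and 2 (73 in all) in the fit reported. The pseudocount of 0.1 gave 72 and 4, the filter of at least 5 FPKM 72 and 1, rescaling 64 and 7, no filter 18 and 5 (23), quality weights 6 and 1 (7), and the 4 compared libraries alone 0 and 0 (0; smallest adjusted p 0.123). Chosen after seeing the data, an untrended prior gave 46 and 2 (48) and a fit without the Fix T1 libraries 109 and 6 (115). Of the 16 passing genes given by name or identifier, 15 passed again after rescaling and 11 with the replicate block. Without the filter 8 of the 16 passed, and with quality weights 5. With 1 library left out, 8 to 111 genes were higher and 1 to 6 lower (11 to 117), the lone library of its group being assumed to vary like the others. Under these alternatives, 0 to 73 of the 73 genes passed again, and the cause was not tested. The replicate block gave 43 and 1 (44). Equal numbers did not pair libraries, since the correlation of deviations was over 0.1 in 2 of 15 pairs of groups. It was -0.14 for Fix T3 with Fix T2, and the crossed replicate block gave 65 and 1.

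The median difference over all tested genes stayed within the spread between pairs of libraries, at -0.00324 to 0.216. Rescaling turned the sign of 6 named genes that do not pass: HSP17.4 (-0.127), SPX1 (-0.133), ACT1 (-0.0469), LSI6 (-0.0114), WRKY71 (-0.0896) and GLK2 (-0.0232). Leaving out a Fix T3 or Fix T2 library turned that of 24 named genes, of which 0 pass. Their differences ran over -0.447 to 0.326 for 4CL1, -0.0917 to 0.303 for ACT1, -0.148 to 0.849 for AGO4a, -0.0454 to 0.614 for APX1, -0.601 to 0.0171 for CAB1R, -1.11 to 1.03 for Cht1, -0.184 to 0.0194 for DREB1H, and -0.25 to 1.53 for ELF3-1. They ran over -0.755 to 0.199 for GI, -0.175 to 0.437 for GLK2, -0.383 to 0.22 for HCT3, -0.413 to 0.461 for HSP17.4, -0.466 to 0.407 for JAZ8, -0.369 to 0.649 for LSI6, -0.391 to 0.00468 for MADS1, and -0.416 to 0.291 for PCNA. The rest ran over -0.408 to 1.06 for PHYB, -0.701 to 0.108 for PIP1-1, -0.177 to 0.833 for RAB16A, -0.143 to 0.568 for RCA, -0.065 to 2.67 for SGR, -0.583 to 0.613 for SPX1, -0.314 to 0.171 for SUT2, and -0.0513 to 0.164 for WRKY71.

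Absolute depth is unknown, so no counting error stands behind low values. With 2 libraries a group, a difference that did not pass is not shown to be absent. Every gene name rests on pairing by hand.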
